A study of Mus musculus with 8 samples.

Results

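The genes described here are 10 feedback and target genes of canonical Wnt signalling, chosen by name and read from the probe sets that name each gene alone. Of the 10 genes, 9 had such a probe set, 1 each: Axin2, Rnf43, Znrf3, Nkd1, Sp5, Myc, Sox9, Ephb3 and Cd44. Ephb2 had none in the annotation table used, so its level was not analysed here. They belong to 19938 measured genes in all.

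The study profiled 8 samples on Affymetrix arrays: the intestinal epithelium of male ICR mice aged 8 weeks, with the cells isolated and their RNA extracted on day 4 after transfection of the living small intestine. The siRNA arm held 3 arrays labelled siYAP/TAZ, from intestine given siRNAs against both YAP and TAZ, and 3 arrays labelled siGFP, given an siRNA against the jellyfish protein GFP. The shRNA arm held 1 array labelled shYAP/TAZ, from intestine given plasmids expressing shRNAs against YAP and TAZ, and 1 array labelled shLacZ, given a plasmid expressing an shRNA against bacterial LacZ. The labels assign each control array to 1 knockdown array, which gives 3 siRNA pairs and 1 shRNA pair. They do not say whether the arrays of a group came from separate mice, so p-values measure only the spread between these samples, nor which share of the epithelial cells took up the nucleic acids. ICR is an outbred stock, and each sample is a mixture of epithelial cell types.

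In canonical Wnt signalling, a Wnt ligand bound to Frizzled and LRP receptors stops the destruction complex from degrading beta-catenin, which then acts with TCF/LEF factors to switch on target genes. Several of these targets feed back: Axin2 rebuilds the destruction complex, and Rnf43 and Znrf3 remove Frizzled from the cell surface. In the small intestine the pathway is most active at the base of the crypts, where it maintains stem cells and Paneth cells, and it declines towards the villus. YAP and TAZ (the gene of TAZ is Wwtr1) are coactivators of the Hippo pathway that have been linked to the beta-catenin destruction complex. The comparison asked how these Wnt genes stood when siRNAs or shRNAs against YAP and TAZ had been given.

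Of the members, 7 of 10, Ephb2 among them, had promoter windows in the RefSeq table of the GRCm38.p6 build, in 8 windows, since Rnf43 had a window for each of 2 start sites. The 250 bases before each start were searched on both strands for the TCF/LEF word CTTTG followed by a pair of bases that are each A or T. Among the members the Sp5 window held 2 such words and the other windows none, against 14.8% of 32851 windows of the same length with at least 1 and 1.43% with at least 2. The longer word CTTTGATC, which contains 1 of these, stood once in the Sp5 window and in 0.801% of all windows. GGAATG, a core word of TEAD binding sites, stood in 0 of the 8 windows on either strand and in 12.6% of all windows. The windows of Axin2, the member with the most separated groups, and of Sp5, the only one with a word, are shown with the words in capitals. Both lie on the plus strand, at chr11:108920099-108920348 for Axin2 and chr2:70474673-70474922 for Sp5, directly before an annotated start site.
Axin2: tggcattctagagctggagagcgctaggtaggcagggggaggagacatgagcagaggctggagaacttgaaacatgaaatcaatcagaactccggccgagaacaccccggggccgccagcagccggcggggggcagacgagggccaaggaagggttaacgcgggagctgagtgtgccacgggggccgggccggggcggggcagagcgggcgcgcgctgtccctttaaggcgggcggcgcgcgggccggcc
Sp5: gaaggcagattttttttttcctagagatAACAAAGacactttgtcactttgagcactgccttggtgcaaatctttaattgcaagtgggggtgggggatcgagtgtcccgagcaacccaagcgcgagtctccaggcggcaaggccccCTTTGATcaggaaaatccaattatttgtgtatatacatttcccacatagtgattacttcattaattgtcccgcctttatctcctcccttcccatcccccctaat
In the Sp5 window the 2 words begin 222 and 104 bases before the start, the farther one on the minus strand. A match is a description of these letters only, and sites outside the windows were not searched.

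Before the members, the samples themselves were compared. Yap1 had log2 intensities of 7.41, 6.78 and 7.47 in siYAP/TAZ 1, 2 and 3, against 7.16, 7.64 and 7.20 in siGFP 1, 2 and 3. Wwtr1 had 5.60, 5.94 and 5.66 in the siYAP/TAZ arrays, against 6.16, 5.36 and 6.52 in the siGFP arrays. In the shRNA arm Yap1 had 7.25 in shYAP/TAZ and 7.35 in shLacZ, and Wwtr1 had 6.02 in shYAP/TAZ and 5.96 in shLacZ. The siRNA groups overlapped for both genes, and Yap1 was higher in siYAP/TAZ 1 and 3 than in siGFP 1 and 3. The groups are therefore called by their labels throughout, and the word knockdown refers to the labels alone. A principal component analysis put 56.8% of the variance on the first axis, which set siYAP/TAZ 2, siYAP/TAZ 3 and siGFP 3, with scores between 57.5 and 64.5, apart from the other 5 arrays, with scores between -70.3 and -1.67. The average log2 intensity of 12 enterocyte markers ran from 10.6 in siGFP 1 to 12.2 in siYAP/TAZ 3. The average of 10 crypt base stem cell markers was 6.81 in siYAP/TAZ 2, 6.24 in siYAP/TAZ 3 and 6.46 in siGFP 3, and between 7.31 and 8.60 in the other 5 arrays. For 11 mitotic genes it was 5.91, 5.73 and 5.65 in these 3 arrays and 7.58 to 8.47 in the others. For 7 Paneth cell markers it was 8.26, 8.17 and 8.09, and 9.28 to 10.4 in the others. In such mixtures, fewer cells of a type and less RNA per cell cannot be told apart.

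Across the siRNA arm, 8 of the 9 members were lower in the mean of the siYAP/TAZ arrays than in that of the siGFP arrays, where 53.6% of all genes were. Axin2 was the only member whose arrays did not overlap between the groups, and it was 1.87-fold lower in the mean. Rnf43 and Ephb3 were 1.84-fold and 1.57-fold lower in the mean with overlapping arrays, and Sp5 was 1.10-fold higher. None passed the threshold of 0.05 on limma's adjusted p over all genes: it was 1.00 for each of the 9 members, and 0% of all genes passed. At an unadjusted p under 0.05 limma gave 237 genes in all and 1 member, Axin2, where 0.762% of all genes were lower at that level. Non-overlapping groups with siYAP/TAZ lower were seen for 1 of 9 members and 2.99% of all genes, and for siYAP/TAZ higher for 0 of 9 members and 1.6% of all genes. A mean at least 1.5-fold lower was seen for 3 of 9 members, against 3.67% of all genes. The median log2 difference of the 9 members was -0.44, beside a median of -0.02 over all genes.

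**Figure D1:**
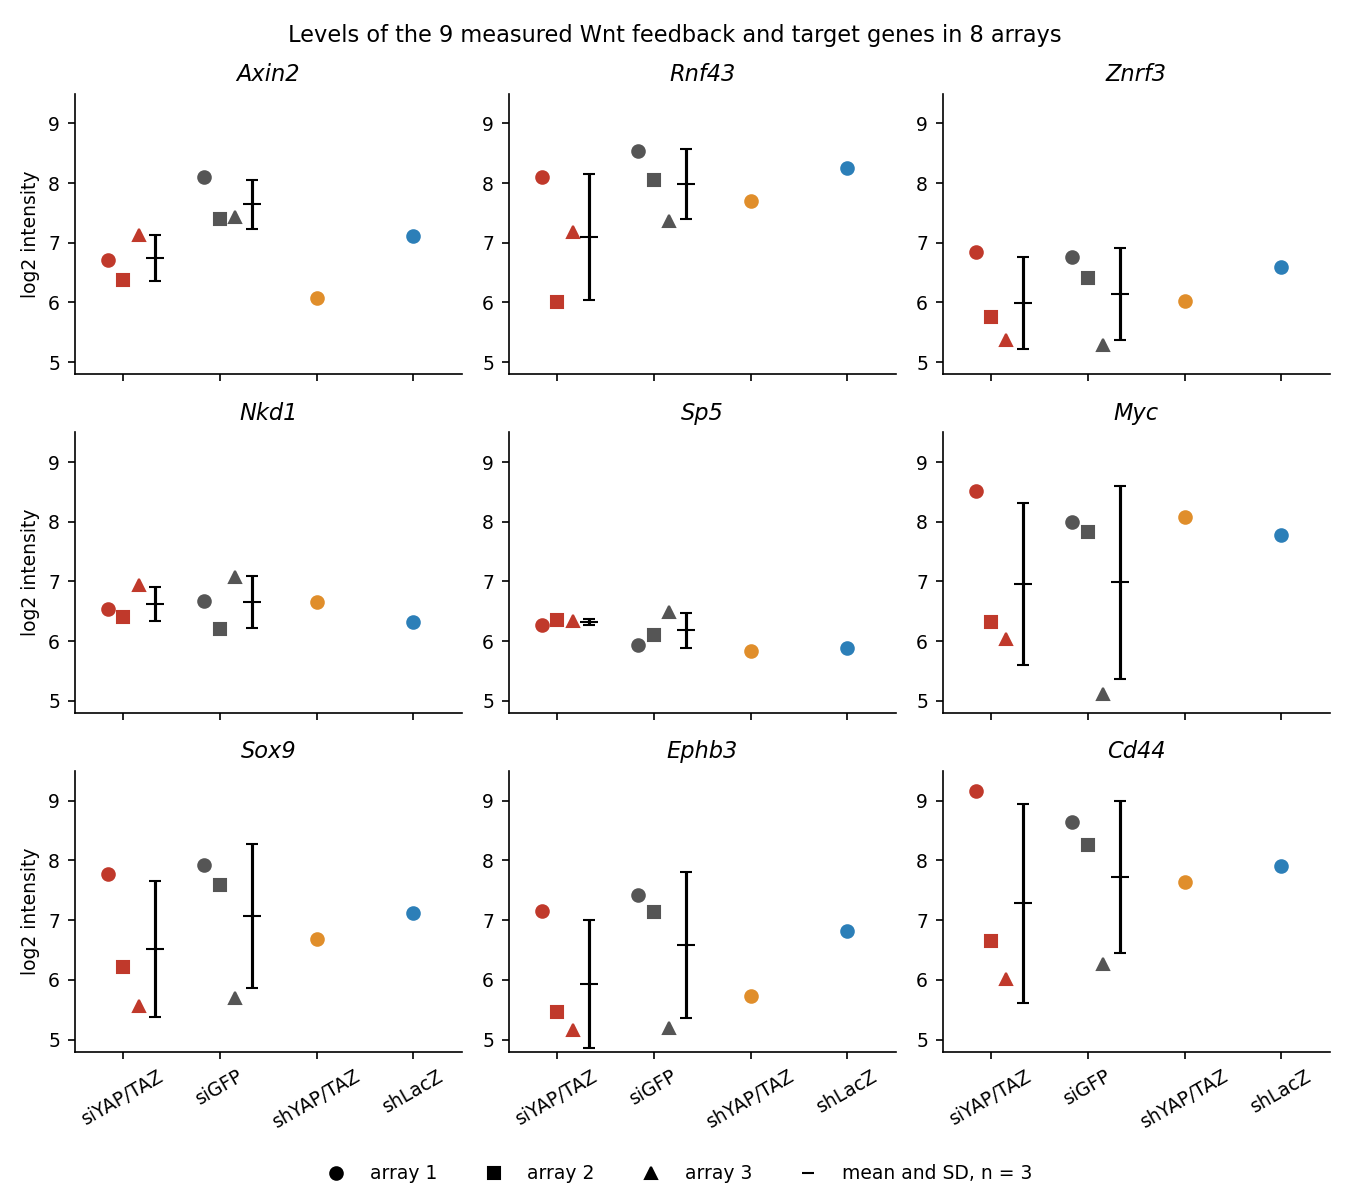
Log2 intensity (vertical axis) of each measured member in the siYAP/TAZ, siGFP, shYAP/TAZ and shLacZ arrays (horizontal axis), 1 point per array, with the mean and SD of the siRNA groups (n = 3). Axin2 shows the siYAP/TAZ arrays between 6.37 and 7.13, all below the siGFP arrays, while in Myc, Sox9, Ephb3 and Cd44 the arrays siYAP/TAZ 2, siYAP/TAZ 3 and siGFP 3 lie low together.

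The negative feedback genes came first. Axin2, a scaffold of the destruction complex and one of the most general targets of beta-catenin, had 6.72, 6.37 and 7.13 in siYAP/TAZ 1, 2 and 3, against 8.11, 7.39 and 7.42 in siGFP 1, 2 and 3. All 3 siYAP/TAZ arrays lay below all 3 siGFP arrays, and siYAP/TAZ 3 came nearest to the controls. The means were 6.74 ± 0.38 in siYAP/TAZ and 7.64 ± 0.40 in siGFP (SD, n = 3 each), so the log2 difference was -0.90, with an SE of 0.34 and a 95% confidence interval of -1.68 to -0.12. A two-sided exact permutation test gave p = 0.1, its minimum for groups of 3. In the shRNA arm Axin2 had 6.07 in shYAP/TAZ and 7.12 in shLacZ, a log2 difference of -1.05 with no replicate. Over both arms the 4 knockdown arrays lay at 6.07 to 7.13 and the 4 controls at 7.12 to 8.11, so siYAP/TAZ 3 and shLacZ met at the border. Leaving out 1 array at a time kept the siRNA difference between -1.10, without siYAP/TAZ 3, and -0.67, without siGFP 1. Set beside the crypt base average, each minus its mean over the 8 arrays, Axin2 was high with it in siGFP 1, at 1.07 for Axin2 and 1.16 for the markers, and low with it in siYAP/TAZ 2, at -0.67 and -0.64. In siGFP 3 Axin2 stood at 0.38 and the markers at -0.99, and in siYAP/TAZ 1 Axin2 stood at -0.32 and the markers at 0.43.

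Rnf43, a ubiquitin ligase that clears Frizzled receptors, had 8.10, 6.01 and 7.19 in the siYAP/TAZ arrays, against 8.53, 8.05 and 7.37 in the siGFP arrays. The groups overlapped, and siYAP/TAZ 2 lay far below every other array. The difference of the means was -0.88 with an SE of 0.54 (95% interval -2.11 to 0.34, exact permutation p = 0.3), with -0.34 when siYAP/TAZ 2 was left out and -1.39 when siYAP/TAZ 1 was. In the shRNA arm Rnf43 had 7.70 in shYAP/TAZ and 8.25 in shLacZ. B cell markers, a sign of lymphocytes in the isolate, had their highest average in the array where Rnf43 was lowest: 8.22 in siYAP/TAZ 2, against 4.90 to 6.96 in the other 7 arrays. Their part in the Rnf43 value was not tested.

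Znrf3, the paralogue of Rnf43 with the same task, had 6.85, 5.76 and 5.37 in the siYAP/TAZ arrays, against 6.76, 6.40 and 5.28 in the siGFP arrays. Here siYAP/TAZ 3 and siGFP 3 were both low and the arrays numbered 1 both high, and the difference of the means was -0.15 (95% interval -1.29 to 0.98, exact permutation p = 1). The shRNA pair gave 6.02 in shYAP/TAZ and 6.60 in shLacZ. Nkd1, which binds Dishevelled and dampens Wnt signals, had 6.54, 6.40 and 6.94 in the siYAP/TAZ arrays, against 6.68, 6.20 and 7.07 in the siGFP arrays. The groups lay over each other, with a log2 difference of -0.03 (95% interval -0.78 to 0.73), and Nkd1 had 6.66 in shYAP/TAZ and 6.32 in shLacZ. Nkd1 was thus the feedback gene that stood higher in the shRNA knockdown array.

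Sp5, a zinc finger factor and direct Wnt target whose promoter window is printed above, had 6.27, 6.35 and 6.34 in the siYAP/TAZ arrays, against 5.93, 6.11 and 6.50 in the siGFP arrays. The siYAP/TAZ arrays lay inside the range of the siGFP arrays, with a log2 difference of 0.14 (95% interval -0.51 to 0.79). Sp5 had 5.83 in shYAP/TAZ and 5.89 in shLacZ. Sp5 varied least of the members: its SD over the 8 arrays was 0.25, at percentile 14.7 of all genes, where that of Myc was 1.21, at percentile 98.6. Sp5 was also dim, with deposited intensities of 61.2 to 96.2, where the medians of the arrays ran from 76.4 to 95.5. The part of this low signal in its small spread was not tested. The 95% interval of Axin2, -1.68 to -0.12, overlapped those of Sp5 and Nkd1, and the differences between members were not tested.

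Among the targets tied to proliferation and the crypt niche, the arrays differed widely within each group. Myc, a growth-promoting transcription factor, had 8.51, 6.32 and 6.04 in the siYAP/TAZ arrays, against 8.00, 7.84 and 5.12 in the siGFP arrays. Each group thus spanned more than the whole range of Axin2 over the 8 arrays, which was 2.04. The difference of the means was -0.02 with an SE of 0.87 (95% interval -1.99 to 1.94), and the 4 pairs gave 0.51, -1.51 and 0.93 in the siRNA arm and 0.29 in the shRNA arm. The levels behind the shRNA value were 8.07 in shYAP/TAZ and 7.78 in shLacZ.

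Sox9, a transcription factor of crypt progenitors that Paneth cells need, had 7.77, 6.21 and 5.56 in the siYAP/TAZ arrays, against 7.93, 7.58 and 5.69 in the siGFP arrays. Ephb3, a receptor that keeps Paneth cells at the crypt base by sensing ephrins, had 7.15, 5.47 and 5.16 in the siYAP/TAZ arrays, against 7.42, 7.13 and 5.19 in the siGFP arrays. In both genes siGFP 3 lay between siYAP/TAZ 3 and siYAP/TAZ 2, and siYAP/TAZ 1 lay between siGFP 2 and siGFP 1. The log2 differences were -0.56 for Sox9 (95% interval -2.14 to 1.03, exact permutation p = 0.7) and -0.65 for Ephb3 (95% interval -2.21 to 0.91, exact permutation p = 0.6). With 1 array left out, Sox9 ran from -1.24, without siGFP 3, to -0.08, without siYAP/TAZ 3, and Ephb3 from -1.35, without siGFP 3, to -0.23, without siGFP 1. Sox9 had 6.69 in shYAP/TAZ and 7.11 in shLacZ, and Ephb3 had 5.73 in shYAP/TAZ and 6.82 in shLacZ. The shRNA difference of Ephb3 was -1.09, slightly beyond the -1.05 of Axin2, with 1 array on each side.

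Cd44, a hyaluronan receptor of crypt cells that leukocytes also carry, had 9.17, 6.66 and 6.02 in the siYAP/TAZ arrays, against 8.64, 8.26 and 6.26 in the siGFP arrays. The highest and the lowest of all 8 arrays were both siYAP/TAZ arrays, and the log2 difference of -0.44 came with a 95% interval of -2.40 to 1.52. The shRNA pair had 7.63 in shYAP/TAZ and 7.91 in shLacZ. The B cell average was high in siYAP/TAZ 2 and siYAP/TAZ 3, at 8.22 and 6.96, in which Cd44 was low. In siGFP 3, where Cd44 was also low, the B cell average was 5.58, and it was 4.90 to 5.80 in the arrays with higher Cd44. T cell markers averaged 5.39 to 7.37 over the 8 arrays. The part of leukocytes in the Cd44 values was not tested.

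**Figure D2:**
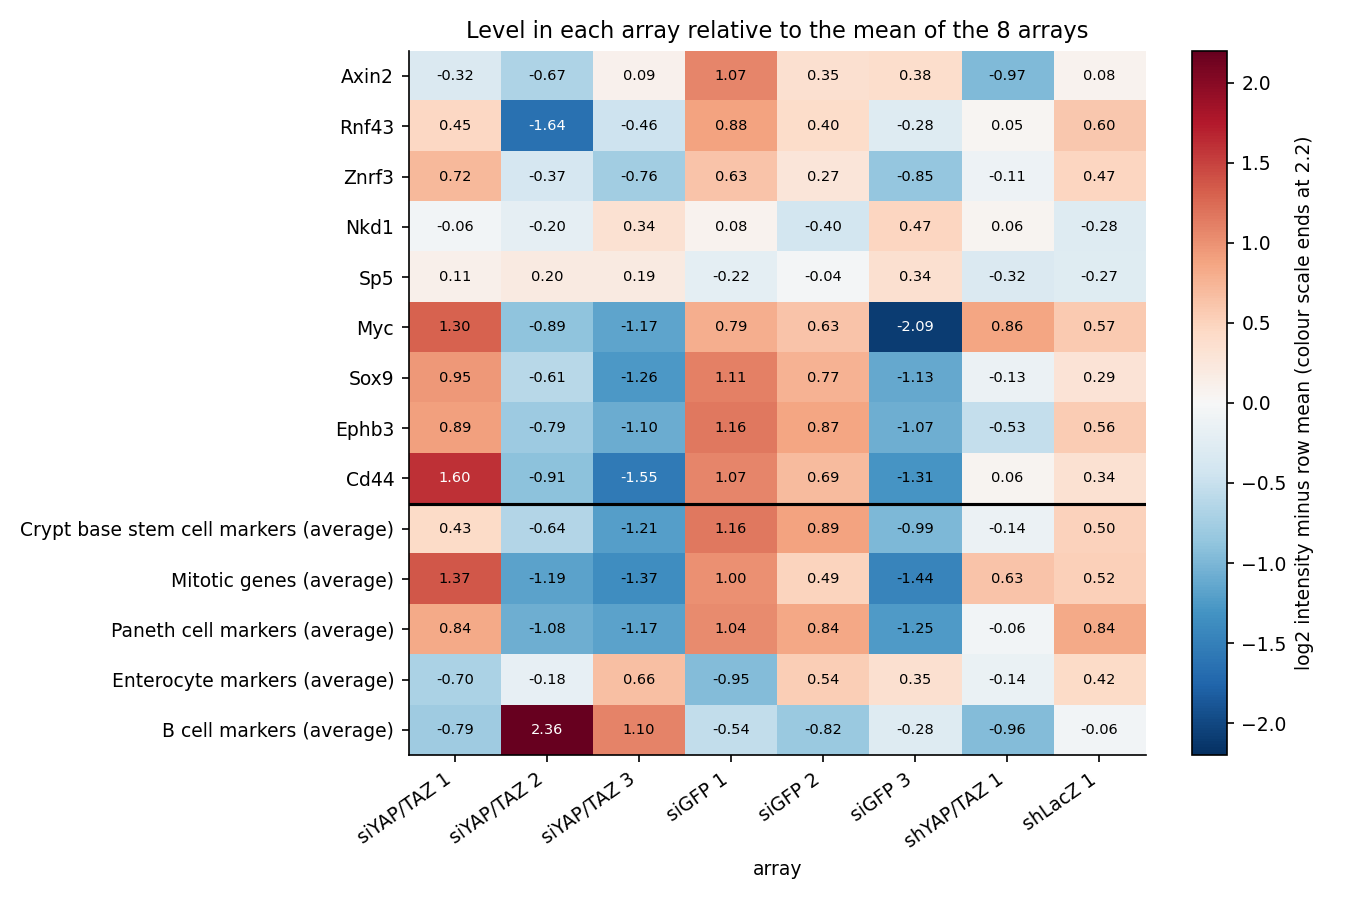
Log2 intensity of each member and of 5 marker list averages (rows) in each array (columns), minus the mean of the row over the 8 arrays. Sox9, Ephb3, Cd44 and Myc carry the colours of the crypt base, mitotic and Paneth rows, with siYAP/TAZ 2, siYAP/TAZ 3 and siGFP 3 low, while Axin2 runs from -0.97 in shYAP/TAZ 1 to 1.07 in siGFP 1 and is above its mean in siGFP 3, at 0.38.

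The members therefore fell into different profiles over the 8 arrays. Likeness was measured as the root mean square difference between log2 profiles, each centred on its own mean, a measure that is small for genes of like amplitude and course and that has no test here. Sox9 and Ephb3 were nearest to each other, at 0.20, and lay at 0.21 and 0.23 from the average profile of the crypt base markers and at 0.27 and 0.23 from that of the Paneth markers. Cd44 and Myc lay nearer to the mitotic average, at 0.27 and 0.29, than to the crypt base average, at 0.47 and 0.64. Znrf3 was nearest to Sox9, at 0.34, whereas Rnf43 lay at 0.53 from its nearest member, Znrf3. Nkd1 and Sp5 were near each other, at 0.27, both being nearly flat. Axin2 had no near member by this measure: the nearest was Nkd1 at 0.62, and 23.1% of all other genes were as near to Axin2 as Nkd1 or nearer. Nkd1 varied little, with an SD over the 8 arrays of 0.30 against 0.65 for Axin2. Axin2 lay at 0.81 from the crypt base average and at 1.19 from the mitotic average. The measure grows with a difference in amplitude alone, so these distances do not show that Axin2 had a course of its own.

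The 5 genes nearest to Axin2 outside the dimmest 33.3% of genes were Igf2r, Cyp2s1, Ccne2, Slc22a18 and Vps33b, at 0.26 to 0.32 over the 8 arrays. Igf2r, the receptor that sorts mannose 6-phosphate proteins to lysosomes, had 7.58, 7.31 and 7.57 in the siYAP/TAZ arrays, against 8.46, 8.11 and 8.08 in the siGFP arrays, and 7.22 in shYAP/TAZ against 8.13 in shLacZ. Ccne2, which encodes cyclin E2, had 6.90, 6.52 and 7.36 in the siYAP/TAZ arrays, against 8.05, 7.72 and 8.20 in the siGFP arrays, and 5.82 in shYAP/TAZ against 7.43 in shLacZ. Both genes, and also Cyp2s1 and Slc22a18, were lower in each knockdown array than in the control array assigned to it. Vps33b was higher in siYAP/TAZ 3, at 9.29, than in siGFP 3, at 9.05. These genes were found by their likeness, so their differences are a description and support nothing about Axin2.

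By labelled pair, 4 of the 9 members were lower in all 4 knockdown arrays than in the control arrays assigned to them: Axin2, Rnf43, Sox9 and Ephb3. The same held for 8.95% of all genes, and 0 of 9 members were higher in all 4 pairs, against 6.02% of all genes. Being lower in all 4 pairs also held for 4 of 10 crypt base, 3 of 7 Paneth and 5 of 12 enterocyte markers, and for 0 of 11 mitotic genes. In siRNA pair 3 Ephb3 stood at only -0.02. The size came mostly from siRNA pair 2. It was the only labelled pair with 1 array on each side of the split on the first axis, siYAP/TAZ 2 at 64.5 and siGFP 2 at -1.67. The part of that split in its differences was not tested. In siRNA pair 2, 7 of 9 members were at least 1.5-fold lower in siYAP/TAZ 2 than in siGFP 2, where 21.1% of all genes were. In siRNA pairs 1 and 3 the count was 1 of 9, which was Axin2 in pair 1, and 0 of 9, against 8.73% and 9.21% of all genes. In the shRNA pair it was 2 of 9, Axin2 and Ephb3, against 8.46% of all genes. The median log2 differences of the members were -0.14, -1.37 and -0.14 in siRNA pairs 1, 2 and 3 and -0.42 in the shRNA pair. In the same pairs the medians of 10 crypt base markers were -0.80, -1.86, -0.25 and -0.36, and those of 11 mitotic genes were 0.33, -1.73, -0.02 and 0.09. Axin2 alone gave -1.39, -1.02, -0.29 and -1.05.

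**Figure D3:**
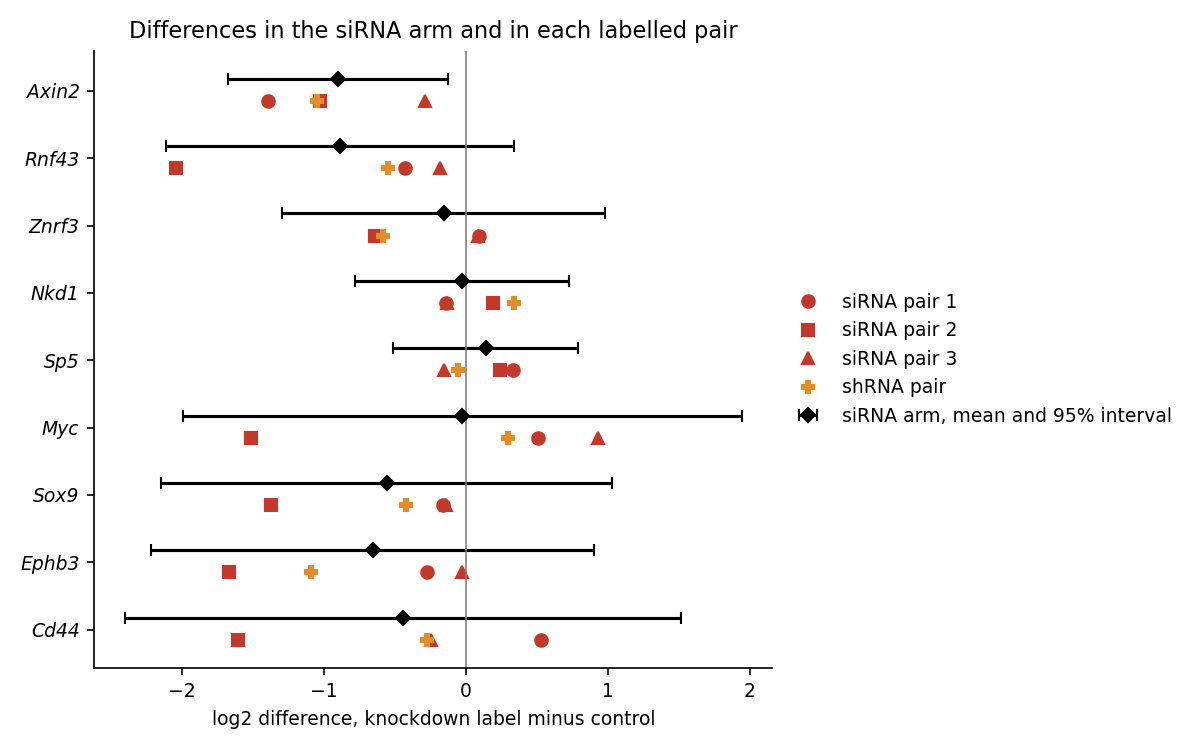
Log2 difference between arrays labelled as knockdown and controls (horizontal axis) for each member: the siRNA arm mean with its 95% confidence interval from limma (diamonds) and the 4 labelled pairs (other symbols). The intervals come from the fit without a replicate block. Among them only the Axin2 interval, from -1.68 to -0.12, leaves out 0, before any adjustment over genes.

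Since siYAP/TAZ 2, siYAP/TAZ 3 and siGFP 3 stood apart, the siRNA differences were also computed without these 3 arrays and with these 3 alone, an alternative added once the arrays had been seen. Axin2 gave -1.03 without them and -0.67 with them alone. Rnf43 gave -0.19 and -0.77. Of the other members, Nkd1 gave 0.10 without them and -0.40 with them alone, and Sp5 gave 0.24 and -0.15. In the same order, Sox9 gave 0.01 and 0.19, Ephb3 -0.12 and 0.13, Znrf3 0.27 and 0.28, Cd44 0.72 and 0.07, and Myc 0.59 and 1.07. The median of the 9 members was 0.10 without the 3 arrays and 0.07 with them alone, beside -0.44 with all 6 arrays. Dropping siGFP 1 alone put that median at -0.01, dropping siYAP/TAZ 3 alone at -0.08 and dropping siGFP 3 alone at -1.01. Each fit on 3 arrays has 1 array on 1 side and assumes that it varies like the others.

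**Figure D4:**
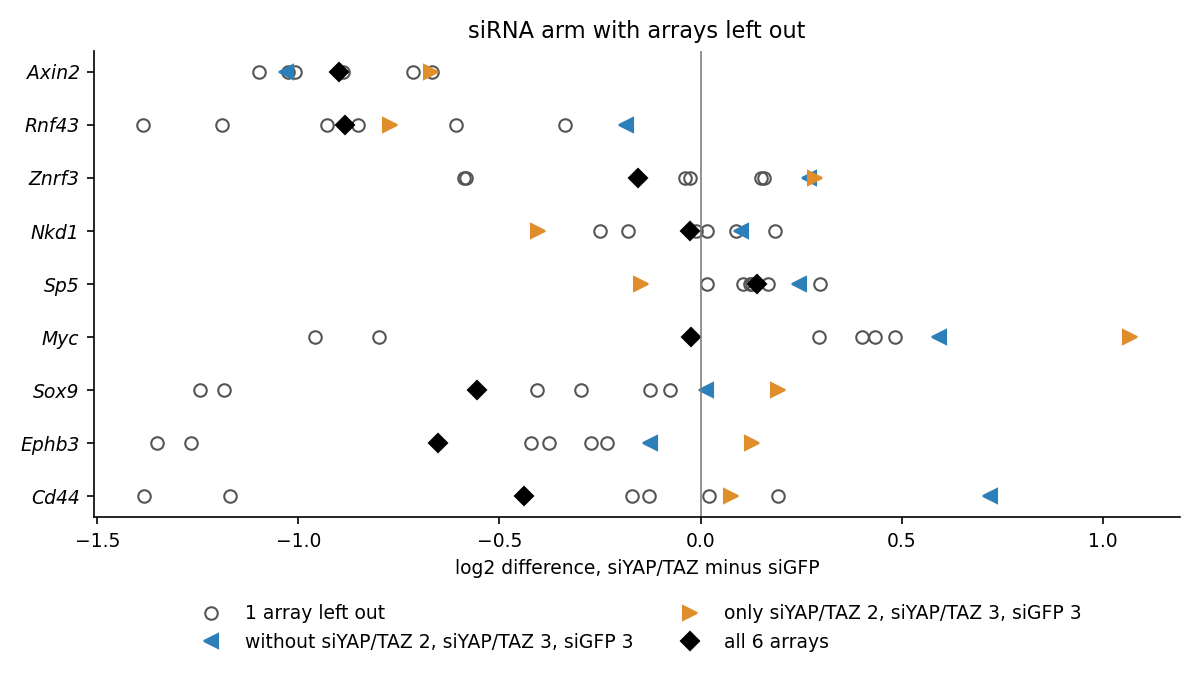
Log2 difference siYAP/TAZ minus siGFP (horizontal axis) for each member with all 6 siRNA arrays (diamonds), with 1 array left out (circles), without the 3 arrays that stand apart (left triangles) and with these 3 alone (right triangles). All symbols of Axin2 and Rnf43 lie below 0, and those of Myc run from -0.96 to 1.07.

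The rest of the pathway was read from lists of known components. Of 21 Wnt ligands and export genes, 0 passed limma's threshold in either direction, with a median log2 difference of 0.06. The largest differences were those of Wnt10a, a ligand, at 0.77 (SE 0.43), and Wls, which carries Wnt proteins to the cell surface, at -0.76 (SE 0.52). Of 15 Wnt receptors, 0 passed, and 10 had a lower mean in siYAP/TAZ, where 53.6% of all genes did. Their median was -0.21. Among them the Frizzled receptor gene Fzd7 stood at -0.82 (SE 0.64) and the coreceptor gene Lrp6 at -0.61 (SE 0.44). Lrp6 had 8.50, 7.03 and 7.48 in the siYAP/TAZ arrays, against 8.81, 8.12 and 7.89 in the siGFP arrays, so the groups overlapped although it was lower in all 4 pairs.

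Of 7 R-spondins, the ligands that protect Frizzled from Rnf43 and Znrf3, and their receptors, 0 passed, with a median of -0.12. Lgr5, the R-spondin receptor that marks stem cells, had 6.91, 6.13 and 4.95 in the siYAP/TAZ arrays, against 8.57, 8.30 and 5.48 in the siGFP arrays. Its log2 difference was -1.45 (SE 0.81), and siGFP 3 lay below siYAP/TAZ 1 and siYAP/TAZ 2. Lgr4, the receptor with the wider expression, stood at -0.38. Of 16 extracellular inhibitors, 0 passed, with a median of -0.07, and Sfrp5 and Sfrp2, which bind Wnt proteins, stood at -0.56 and 0.31.

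Of 16 genes of the destruction complex and cytoplasmic transducers, 0 passed and the median was -0.19. In the mean 14 of them were lower, where 53.6% of all genes were. Dvl2, a Dishevelled protein that passes the signal on from Frizzled, had 6.17, 5.82 and 5.45 in the siYAP/TAZ arrays, against 6.43, 6.50 and 6.69 in the siGFP arrays. These groups did not overlap, as for 2.99% of all genes with siYAP/TAZ lower, with a log2 difference of -0.73 (SE 0.30, limma adjusted p = 1.00). In the shRNA arm, however, Dvl2 was higher, at 6.55 in shYAP/TAZ and 6.24 in shLacZ. Its relative Dvl3 stood at -0.47. Of 12 measured TCF/LEF factors and cofactors, 0 passed, 6 were higher and 6 lower in the mean, and Bcl9 and Pygo1, which link beta-catenin to transcription, stood at -0.57 and 0.47.

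Of 16 measured further Wnt target genes, 0 passed, and 11 had a lower mean in siYAP/TAZ, where 53.6% of all genes did. This list shares Lgr5 and Lef1 with those above and Lgr5, Ascl2 and Tnfrsf19 with the crypt base markers. The median of the 16 genes was -0.14. Ascl2, a stem cell transcription factor, stood at -0.79 (SE 0.63). Of 6 ephrin-B ligands and other EphB receptors, 0 passed, with a median of 0.02. The receptor gene Ephb4 stood at -0.93 (SE 0.68) and the ligand gene Efnb1 at -0.37. Of 9 Myc partners and relatives, 0 passed, with a median of -0.04, and Mycl and Mycn stood at -0.53 and -0.34. At an unadjusted p under 0.05, limma gave 1 gene over all these pathway lists, Dvl2, which was lower. At that level 0.762% of all genes were lower.

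**Figure D5:**
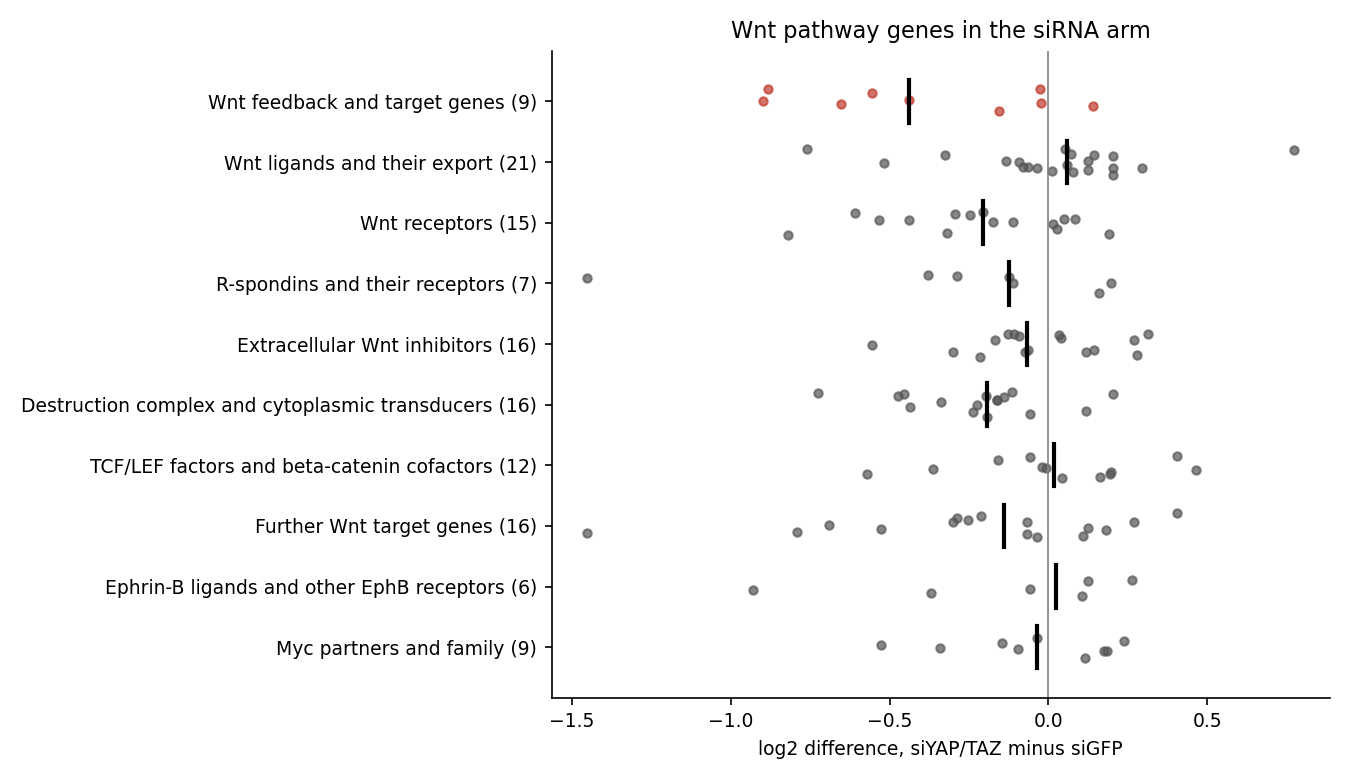
Log2 difference siYAP/TAZ minus siGFP (horizontal axis) of each measured gene (points) by pathway list (rows, with the number measured), with the median of each list as a bar. The medians run from -0.44 for the feedback and target genes to 0.06 for Wnt ligands and export, and Lgr5, at -1.45, is the lowest point.

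Markers of the cells in the isolate differed beside these genes. The siRNA medians were -0.83 for crypt base markers, -0.51 for mitotic genes, -0.76 for 7 Paneth cell markers and -0.27 for enterocyte markers. All 10 crypt base and all 7 Paneth markers were lower in the mean, where 53.6% of all genes were. The averages per array ran from 6.24 to 7.87 in siYAP/TAZ and 6.46 to 8.60 in siGFP for crypt base markers. For Paneth markers they ran from 8.17 to 10.2 in siYAP/TAZ and 8.09 to 10.4 in siGFP. The brightest crypt base markers, Olfm4 and Slc12a2, stood at -1.76 and -1.30, and the brightest Paneth markers, Lyz1, the Paneth lysozyme, and Pla2g2a, a phospholipase, stood at -0.76 and -1.22. None of these marker genes passed limma's threshold. The part of crypt content in the member differences was not tested. The values with and without the 3 arrays are no such test. Without them the crypt base average was 7.87 in siYAP/TAZ 1, against 8.60 in siGFP 1 and 8.34 in siGFP 2. In the same order of arrays, the mitotic average was 8.47, against 8.10 and 7.58. The Paneth average was 10.2, against 10.4 and 10.2, so the lists differed in direction.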

How the data were processed

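Labelled material was made from total RNA with an Affymetrix WT Terminal Labeling kit, per the labels. The authors deposited 1 linear intensity per array for each of 28853 probe sets. The background correction, probe summarisation and genome build were not given in the sources used here. Deposited intensities began at 16.0, as an added constant would leave them. If so, differences of dim genes are understated. Among the members the lowest mean levels were those of Znrf3, Sp5 and Ephb3, at percentiles 38.2, 39.0 and 42.4 of all genes. The members and lists were chosen with earlier results of these data known.

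Intensities were put on the log2 scale and quantile normalized over the 8 arrays, whose medians lay up to 0.32 apart. Of 21789 probe sets naming 1 gene, 21698 had an Entrez ID found in RefSeq (GRCm38), from which their symbol was taken. The probe set with the highest mean stood for each of 19938 genes. The siRNA groups (n = 3) were compared with limma 3.58.1 in R 4.3.3 (lmFit, eBayes), Benjamini-Hochberg adjusted over all genes at 0.05, and each member by an exact two-sided permutation test. The number of arrays limits the precision. The shRNA arm (1 array per group) has no test. Named genes were all members, the 2 largest siRNA differences of each pathway list, up to 5 genes nearest to Axin2, and the 2 brightest of each marker list; Dvl3, Lgr4 and other second-ranked genes come from that rule. Marker lists were also drawn up for goblet, enteroendocrine and tuft, T, B, myeloid and stromal cells. Alternatives covered the normalization, the constant, dim genes, probe sets, the eBayes prior, array weights, blocks, all 8 arrays and left-out arrays.

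Same-numbered siRNA arrays had correlations of their deviations from the group means of 0.75, -0.13 and 0.57 over genes, so no shared source was assumed and the main comparison has no block. The labels name each control array as the control for 1 knockdown array, and differences by pair follow that.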

Additional observations from a re-analysis of the deposited data

How the results depend on the processing

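In 19 alternatives to the siRNA comparison, of which both settings on the 3 arrays apart were added after seeing the data, 0 of the 9 members passed limma's adjusted p of 0.05, and the smallest was 0.14, for Ephb3 with array weights. Axin2 stayed between -1.10 and -0.60 and Rnf43 between -1.39 and -0.19. Of the 171 values of all 9 members, 29 changed direction, all in the other 7 members. Leaving out dim genes, averaging probe sets, the other prior and the siRNA block could not change a member's difference, only its SE and p. These alternatives therefore say nothing of its stability. Over all genes limma called 0 in the main comparison, 1 with the labels' numbers as a replicate block, 4 with a replicate block of all 4 pairs, 61 without both arrays numbered 1, 38 without the 3 arrays that stood apart, 136 with those 3 alone, and 0 to 13 with single arrays left out (13 without siYAP/TAZ 1). Neither block changed the call of a member. With the siRNA block, limma's unadjusted p was 0.011 for Axin2 and 0.031 for Rnf43, with 849 of all genes under 0.05. With the 4 pairs it was 0.0019 for Axin2, 0.023 for Rnf43 and 0.022 for Ephb3, with 1493 of all genes under 0.05. The siRNA block lowered the SE of Rnf43 from 0.54 to 0.36 and that of Ephb3 from 0.69 to 0.34. Directions turned for Myc with 16 subtracted, at 0.067, and over all 8 arrays, at 0.055 with the arm as covariate or with pairs; for Nkd1 with array weights, at 0.39, over all 8 arrays, at 0.066 with either, and without both arrays numbered 1, at 0.030. Without the 3 arrays apart, Znrf3 stood at 0.27, Nkd1 at 0.10, Myc at 0.59, Sox9 at 0.013 and Cd44 at 0.72. With those 3 alone, Znrf3 stood at 0.28, Sp5 at -0.15, Myc at 1.07, Sox9 at 0.19, Ephb3 at 0.13 and Cd44 at 0.074. Single arrays left out gave -0.59 to 0.16 for Znrf3, -0.25 to 0.19 for Nkd1, -0.96 to 0.48 for Myc and -1.38 to 0.19 for Cd44. With array weights the median of the members was -1.07, with Znrf3 at -0.83, Myc at -1.32, Sox9 at -1.64, Ephb3 at -1.64 and Cd44 at -1.80. The cause of these shifts was not tested. In the main comparison, without a block, the 95% intervals of 7 of the 9 members reach beyond 1 log2 unit, with 3 arrays a group and wide spread between them.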

Other observations

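The remaining marker lists were read in the same way, as medians of log2 differences. None of their genes passed limma's adjusted threshold with all 6 siRNA arrays, and the shRNA arm has 1 array on each side.

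B cell markers had the largest median of the marker lists, 1.66 over 7 measured genes in the siRNA arm. All 7 were higher in the mean, where 9246 of all 19938 genes were. At an unadjusted p under 0.05 limma gave 2 of them as higher, where 0.426% of all genes were higher at that level. Without both arrays numbered 1, the genes that passed limma's adjusted threshold included Cd22, Cd79a, Cd79b, Fcer2a, Ms4a1 and Pax5 of this list. By pair their median was 0.04, 3.70 and 1.60 in siRNA pairs 1, 2 and 3, and -1.15 in the shRNA pair. Cd22, a B cell surface lectin and one of the brightest of the list beside Pax5, had 5.24, 9.31 and 8.71 in the siYAP/TAZ arrays, against 5.15, 5.54 and 6.75 in the siGFP arrays. The groups overlapped, since siYAP/TAZ 1 lay among the controls.

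Goblet cell markers had a median of -0.39 in the siRNA arm and -0.12 in the shRNA arm. All 6 measured were lower in the mean of the siRNA arm, where 53.6% of all genes were. Tff3, a secreted trefoil peptide, stood at -0.10 and Zg16, a mucus lectin, at -0.23. Enteroendocrine and tuft cell markers had -0.16 in the siRNA arm and -0.08 in the shRNA arm, with the hormone gene Sct at 0.13 and the granule gene Chga at -0.44. T cell markers had 0.28 in the siRNA arm and -0.75 in the shRNA arm, with Gzma at 0.28 and Cd3e at 0.48. Myeloid markers had -0.21 in the siRNA arm and 1.07 in the shRNA arm, with Lyz2 at -0.67 and Csf1r at -0.25. Stromal, muscle and endothelial markers had 0.03 in the siRNA arm and -0.10 in the shRNA arm, with Col1a1 at 0.30 and Acta2 at -0.02.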
